A study of Strophostyles helvola with 12 samples.

Results

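Among the genes measured in roots of the sand bean, Strophostyles helvola, 61 of 27191 had opposite salt responses in the Beach and the Inland genotype. For 27 genes the mean level was at least 1.5-fold higher with salt in Beach and at least 1.5-fold lower with salt in Inland, and these are called the Beach-higher genes here. For the other 34 the directions were reversed, and these are called the Beach-lower genes. The members were chosen by measured values, namely the mean CPM (the count as a share of its library total, scaled to 1000000) of the 4 groups, each with 0.5 added. Further limits were a control level of at least 1.5 in one genotype, a highest group of at least 5, a mean of the 4 groups under 800 and a control level that differed between the genotypes by at most 8-fold, and 17027 genes met these. The folds below use the same values. They are what the choice was made on and are therefore given as a description, with no test.

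The 12 libraries fell into 4 groups of 3 replicates. Beach control came from the genotype of the North Carolina coast supplied with water (0 mM added NaCl), and Beach treatment from the same genotype supplied with 400 mM NaCl. Inland control came from a genotype of Missouri supplied with water, and Inland treatment from that genotype supplied with 200 mM NaCl. Treated plants were given 50 mL of NaCl solution per day, and control plants the same amount of water. Plants of all groups were 10 d old when the supply of NaCl or water began. Roots were taken from separate plants at 3 h, 24 h and 7 d after the final concentration was reached, so plants were older at harvest. The roots of these times were combined into 1 replicate, so each value averages over the times. The dose differed along with the genotype, so genotype and dose cannot be told apart. Reads of both genotypes had been aligned to the genome of another species, the common bean Phaseolus vulgaris.

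Salt reaches roots both as a lack of available water and as an excess of sodium and chloride ions. Plants answer with signalling through abscisic acid, with export of sodium or its storage in vacuoles, with compatible solutes and with a change of growth, and plants of saline coasts are known to grow at salt levels that stop most crops. Legumes, to which both beans belong, are mostly sensitive to salt. The identifiers are those of the common bean gene set and come without gene names or an annotation here, so no function is given to any member. For the same reason the root label could not be checked against marker genes. In whole roots, fewer cells of a type and less RNA per cell cannot be told apart.

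Opposite responses of this size were rare. Of the 17027 genes within the limits, 4983 (29.3%) had opposite signs of any size. The number was 364 at a looser limit (a log2 ratio of 0.32 in both genotypes), 61 at 1.5-fold (0.58) and 5 at 2-fold. At 1.5-fold, 2031 genes within the same limits moved in the same direction in both genotypes, 1077 of them higher and 954 lower with salt. Libraries held 29205979 to 41330498 counts. The members had between 1139 and 261569 counts over the 12 libraries, the lowest count of a member in any library was 7, and none was at 0. The mean CPM of a member's highest group had a median of 26.7 among the Beach-higher genes and 19.9 among the Beach-lower genes, against 32.7 over the 17027 genes, with no correction for gene length.

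The scaling decided how the members divided between the directions. With library totals, as in the choice, the median log2 ratio of treatment to control over the 17027 genes was -0.05 in Beach and 0.08 in Inland. With library sizes scaled by edgeR's TMM method it was 0.00 in Beach and -0.01 in Inland. The rule then gave 42 Beach-higher and 24 Beach-lower genes, of which 51 were among the 61. All 27 Beach-higher genes and 24 of the 34 Beach-lower genes were kept. With DESeq2 size factors the rule gave 40 and 24 genes. No member turned its direction in either genotype under these scalings. Overlap between libraries, given below, was counted with library totals only.

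**Figure D1:**
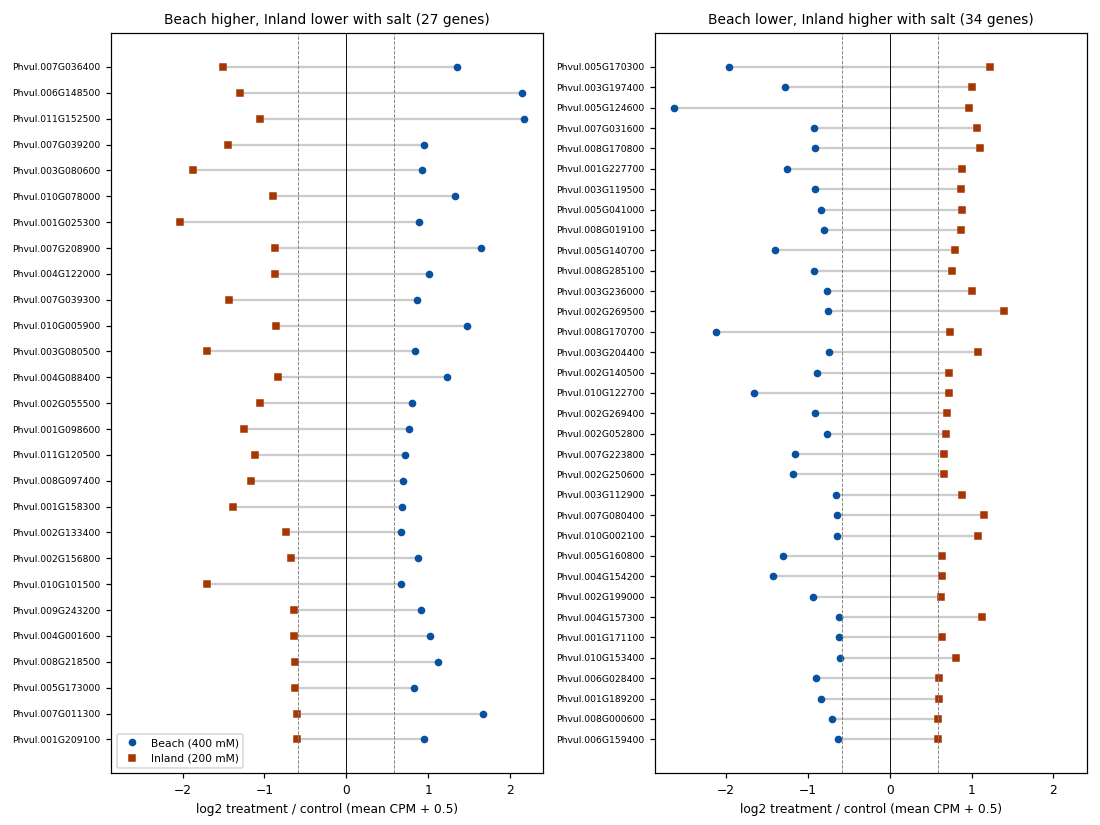
Log2 ratio of treatment to control of the group means (CPM + 0.5) for each of the 61 genes, with Beach as circles and Inland as squares, the Beach-higher genes on the left and the Beach-lower genes on the right. Dashed lines mark the limit of 1.5-fold, and each gene has 1 symbol on either side of 0 because it was chosen so.

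The 27 Beach-higher genes were higher with 400 mM NaCl in Beach by 1.59-fold to 4.49-fold, with a median of 1.91-fold. In Inland they were lower with 200 mM NaCl by 1.51-fold to 4.08-fold, with a median of 2.07-fold. The fold was larger in Beach for 14 of the 27, and 3 reached 2-fold in both genotypes. Every treated library lay above every control library in Beach for 22 genes (26.4% of the 17027 genes had this), and every treated library lay below every control library in Inland for 14 genes (17.9% of the 17027). The 14 were without overlap in both genotypes. Over all 17027 genes 0.599% had this pattern without overlap, and since the rule used the same libraries nothing is read from the difference.

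Phvul.006G148500 had the largest opposite folds of the genes without overlap. Its Beach control libraries held 5.87, 5.11 and 7.03 CPM and its Beach treatment libraries 29.3, 39.1 and 16.9 CPM, which is 4.44-fold higher. Its Inland control libraries held 13.0, 28.0 and 20.9 CPM and its Inland treatment libraries 10.6, 3.90 and 9.80 CPM, which is 2.46-fold lower. Among controls the gene was 3.25-fold higher in Inland, and among treated libraries 3.36-fold higher in Beach, so the order of the genotypes was exchanged. In Beach the lowest treated library stood well above the controls, while in Inland the gap between the lowest control and the highest treated library was narrow.

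Phvul.007G039200 was low in Beach control, at 4.88, 12.8 and 9.64 CPM, and nearly the same in the 3 Beach treatment libraries, at 18.4, 18.2 and 17.5 CPM (1.93-fold higher). In Inland it went from 47.8, 56.9 and 46.7 CPM to 21.3, 13.1 and 20.5 CPM (2.71-fold lower). The mean was 18.1 ± 0.470 CPM in Beach treatment and 18.3 ± 4.49 CPM in Inland treatment (SD, n = 3 each). The genotypes thus differed by 5.31-fold among controls, with Inland higher, and the treated libraries of both overlapped.

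Phvul.003G080600 held 6.18, 5.65 and 4.79 CPM in Beach control and 12.2, 13.0 and 7.84 CPM in Beach treatment (1.91-fold higher). In Inland it held 14.5, 25.9 and 27.6 CPM in control and 8.15, 3.42 and 5.95 CPM in treatment (3.66-fold lower). Phvul.001G025300 had the largest Inland fold of the 27, from 7.57, 19.3 and 16.2 CPM to 2.43, 2.18 and 4.81 CPM (4.08-fold lower). In these genes Inland control replicate 1 was the lowest of its group and still lay above every treated library. The Beach libraries of Phvul.001G025300 went from 3.04, 3.97 and 3.56 CPM to 6.16, 9.76 and 4.95 CPM (1.85-fold higher).

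Phvul.007G208900, like Phvul.006G148500, had the larger fold in Beach, from 3.70, 1.72 and 2.41 CPM to 12.2, 10.3 and 5.26 CPM (3.14-fold higher). In Inland it went from 3.64, 5.98 and 3.48 CPM to 2.31, 2.26 and 1.89 CPM (1.83-fold lower). Phvul.007G039300 held 1.09, 3.84 and 2.87 CPM in Beach control, 5.51, 5.44 and 4.53 CPM in Beach treatment, 14.0, 18.0 and 14.7 CPM in Inland control and 6.07, 4.10 and 6.15 CPM in Inland treatment. Its Beach fold of 1.83 rested partly on the low Beach control replicate 1, without which it was 1.47. Both genes had all treated libraries on one side of the controls in each genotype.

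**Figure D2:**
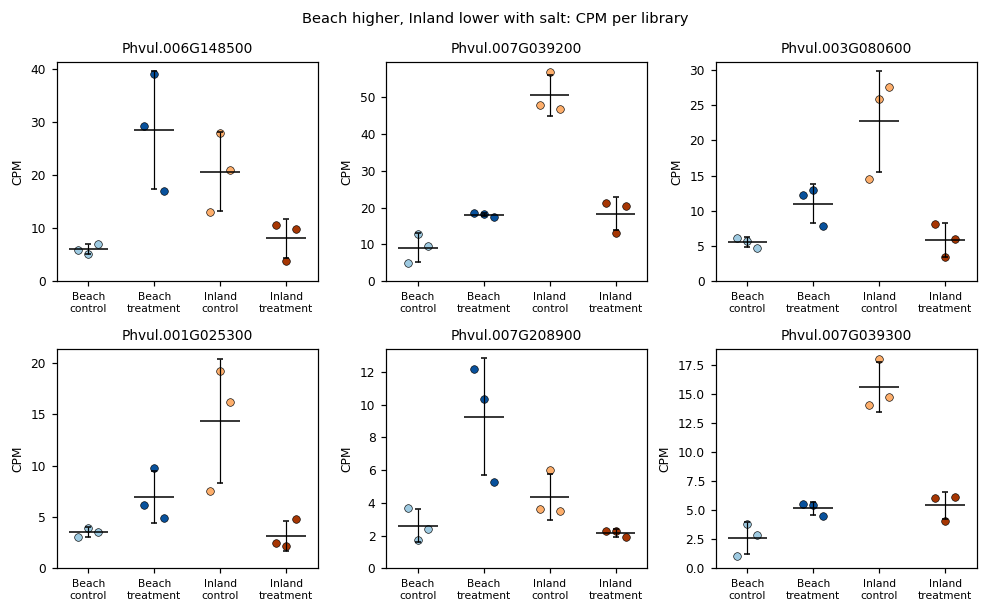
CPM in each of the 12 libraries (points), with the mean and SD of each group (n = 3), for the 6 Beach-higher genes of largest opposite fold among those whose treated and control libraries did not overlap. Beach treatment lies above Beach control and Inland treatment below Inland control in every panel, while the height of Inland control relative to Beach treatment differs between genes, from 50.5 against 18.1 CPM in Phvul.007G039200 to 4.37 against 9.25 CPM in Phvul.007G208900.

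Of the 3 Beach-higher genes with the highest mean CPM, Phvul.002G156800 and Phvul.010G101500 had no overlap between treated and control libraries in either genotype. Phvul.002G156800 held 157, 218 and 182 CPM in Beach control, 321, 381 and 326 CPM in Beach treatment, 137, 225 and 184 CPM in Inland control and 116, 104 and 123 CPM in Inland treatment. The controls of the genotypes were level, at 186 ± 30.3 and 182 ± 43.7 CPM, and salt separated them to 343 ± 33.1 and 114 ± 9.64 CPM (SD, n = 3 each). In Inland it was 1.59-fold lower with salt, or 1.41-fold without Inland control replicate 2. Phvul.010G101500 held 143, 171 and 167 CPM in Beach control and 214, 287 and 265 CPM in Beach treatment (1.59-fold higher, or 1.49-fold without Beach treatment replicate 2). In Inland it went from 175, 106 and 81.6 CPM to 26.5, 41.9 and 42.6 CPM (3.24-fold lower), and the treated genotypes differed by 6.81-fold with Beach higher.

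The third, Phvul.011G120500, rested on single libraries. It held 638, 358 and 508 CPM in Beach control and 628, 1356 and 483 CPM in Beach treatment, so only Beach treatment replicate 2 stood out. In Inland it held 1675, 504 and 447 CPM in control and 352, 396 and 467 CPM in treatment, so only Inland control replicate 1 stood out. Without Beach treatment replicate 2 the gene was 1.11-fold higher with salt in Beach, and without Inland control replicate 1 it was 1.17-fold lower with salt in Inland. Phvul.007G036400, the Beach-higher gene with the widest spread within a group, had the same libraries at the top. It held 3.85, 1.24 and 3.96 CPM in Beach control, 5.38, 16.8 and 3.27 CPM in Beach treatment, 14.6, 3.67 and 1.40 CPM in Inland control and 2.04, 1.58 and 2.37 CPM in Inland treatment. Its Beach fold was 1.37 without Beach treatment replicate 2, and it was 1.21-fold lower with salt in Inland without Inland control replicate 1.

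In all, 5 of the 27 overlapped between treated and control in both genotypes, and in each of the 5 both Beach treatment replicate 2 and Inland control replicate 1 were the highest of their groups. Besides the pair just named these were Phvul.002G055500, Phvul.008G097400 and Phvul.010G078000, named after their values were seen. Phvul.008G097400 held 3.71, 11.7 and 3.15 CPM in Beach treatment against 6.00, 1.05 and 3.89 CPM in Beach control, and without Beach treatment replicate 2 it was 1.05-fold lower with salt in Beach. It was the only member whose direction turned when 1 library was left out.

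The 34 Beach-lower genes were lower with salt in Beach by 1.52-fold to 6.19-fold, with a median of 1.87-fold, and higher with salt in Inland by 1.502-fold to 2.63-fold, with a median of 1.75-fold. The fold was larger in Beach for 21 of the 34, and 2 reached 2-fold in both genotypes. Treated and control libraries did not overlap for 29 genes in Beach (32.2% of the 17027 genes were lower there without overlap), for 24 in Inland (35.1% were higher there) and for 23 in both. Over all 17027 genes 2.60% had this pattern without overlap, a share that again shares its libraries with the rule.

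Phvul.005G124600 had the largest Beach fold. Its Beach control libraries held 8.42, 7.11 and 9.18 CPM and its Beach treatment libraries 0.945, 1.10 and 0.691 CPM, which is 6.19-fold lower. Its Inland libraries went from 8.63, 3.43 and 4.93 CPM to 10.7, 11.8 and 12.2 CPM (1.96-fold higher). The gene was thus at its lowest in treated Beach roots and at its highest in treated Inland roots, where it was 8.56-fold higher than in treated Beach.

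Phvul.008G170800 stood at the same level in both controls, 11.9, 8.29 and 14.3 CPM in Beach and 11.1, 10.9 and 10.97 CPM in Inland. With salt it was at 5.83, 4.79 and 6.97 CPM in Beach (1.88-fold lower) and at 29.7, 19.6 and 23.2 CPM in Inland (2.14-fold higher). Phvul.008G019100 had a like pattern, with 34.0, 21.4 and 26.1 CPM in Beach control, 14.2, 12.1 and 19.9 CPM in Beach treatment, 21.2, 24.0 and 23.0 CPM in Inland control and 41.8, 48.9 and 35.5 CPM in Inland treatment. In both genes the genotypes started within 1.19-fold of each other, and salt moved them apart.

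Phvul.003G119500 held 9.69, 6.80 and 7.13 CPM in Beach control and 4.04, 2.47 and 5.38 CPM in Beach treatment (1.88-fold lower). In Inland it held 5.87, 5.39 and 5.66 CPM in control and 8.55, 13.1 and 10.5 CPM in treatment (1.82-fold higher). Its Inland controls lay between the treated and control levels of Beach. Phvul.005G041000 and Phvul.005G140700 differed from it in their control levels. Phvul.005G041000 was higher in Inland throughout, with 25.1, 14.8 and 22.0 CPM in Beach control, 12.3, 10.4 and 11.3 CPM in Beach treatment, 65.5, 65.8 and 65.0 CPM in Inland control and 114, 107 and 141 CPM in Inland treatment. Salt widened the gap between the genotypes from 3.12-fold to 10.2-fold. Phvul.005G140700 was higher in Beach control, at 18.7, 9.97 and 11.8 CPM, than in Inland control, at 3.11, 3.49 and 3.30 CPM. With salt its Beach libraries were at 4.33, 5.20 and 4.80 CPM and its Inland libraries at 5.01, 7.497 and 5.83 CPM, so the genotypes came close together.

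**Figure D3:**
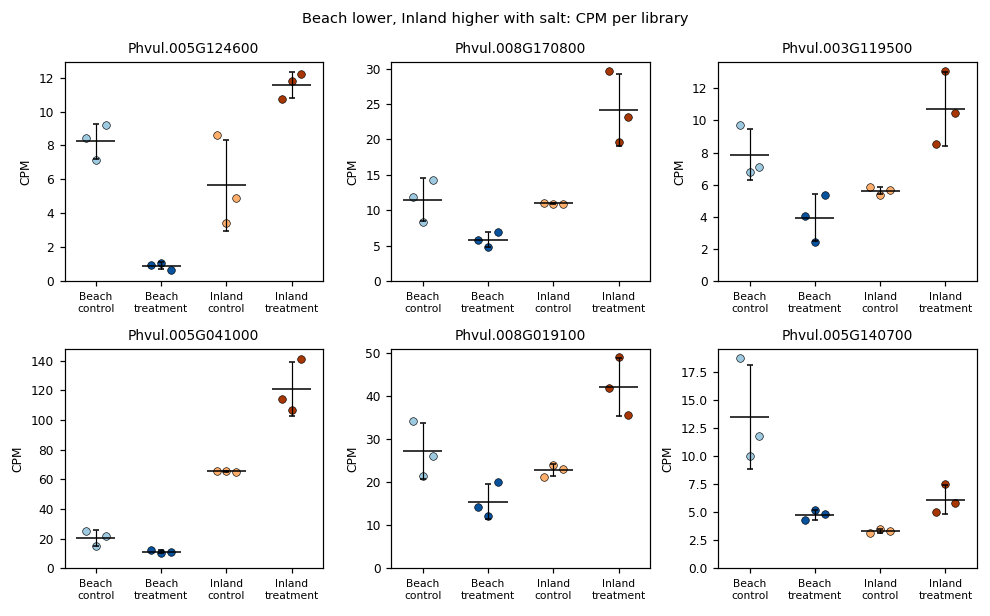
CPM in each of the 12 libraries (points), with the mean and SD of each group (n = 3), for the 6 Beach-lower genes of largest opposite fold among those whose treated and control libraries did not overlap. Beach treatment lies below Beach control and Inland treatment above Inland control in every panel, and Inland control libraries lie close together in 5 of the 6, with Phvul.005G124600 the exception.

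Each of the 3 Beach-lower genes with the highest mean CPM had a fold that depended on single libraries. Phvul.004G154200 held 178, 112 and 133 CPM in Beach control and 46.9, 35.1 and 75.2 CPM in Beach treatment (2.68-fold lower). In Inland it went from 118, 124 and 120 CPM to 166, 234 and 165 CPM (1.56-fold higher, or 1.37-fold without Inland treatment replicate 2). Phvul.002G052800 went from 75.1, 50.2 and 60.8 CPM to 35.9, 27.0 and 45.9 CPM in Beach and from 62.8, 60.9 and 62.8 CPM to 74.6, 139 and 88.0 CPM in Inland. Its Inland fold of 1.61 was 1.31 without Inland treatment replicate 2, so for both genes that library carried the fold past the limit. Phvul.003G112900 went from 76.2, 58.3 and 50.9 CPM to 47.5, 28.2 and 41.1 CPM in Beach (1.58-fold lower) and from 54.2, 36.5 and 34.6 CPM to 69.3, 78.6 and 83.8 CPM in Inland (1.84-fold higher). In Beach it was 1.39-fold lower without Beach treatment replicate 2, and 1.40-fold lower when Beach control replicate 1 was left out.

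Phvul.006G028400 had the widest spread within a group among the Beach-lower genes. Its Inland treatment libraries held 22.9, 15.5 and 2.37 CPM against 11.4, 8.73 and 6.12 CPM in Inland control, so replicate 3 lay below the controls and the others above. The Inland fold of 1.52 was 2.13 without Inland treatment replicate 3 and 1.02 without replicate 1. Its Beach libraries were even, at 7.27, 10.2 and 10.2 CPM in control and 5.11, 4.31 and 4.65 CPM in treatment.

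By their identifiers 4 pairs of members were next to each other in the table, and both genes of each pair had the same direction. In 2 pairs the genes also kept a nearly fixed ratio over the 12 libraries. Phvul.003G080500 held 6.18, 4.96 and 4.13 CPM in Beach control, 9.84, 12.02 and 6.70 CPM in Beach treatment, 12.9, 22.0 and 23.3 CPM in Inland control and 7.32, 3.82 and 5.73 CPM in Inland treatment, and its neighbour Phvul.003G080600 was at 0.896 to 1.24 times its CPM in every library. The ratio of Phvul.007G039200 to Phvul.007G039300 was 3.16 to 4.49. The next gene in the table after the first pair, Phvul.003G080700, is no member: it was lower with salt in both genotypes, from 112 to 2.66 CPM in Beach and from 77.0 to 7.04 CPM in Inland. Whether neighbours share reads through similar sequence was not tested, as no sequence was used.

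The other pairs shared direction but not level. Phvul.008G170700 went from 24.8, 10.8 and 25.2 CPM to 4.20, 2.84 and 5.77 CPM in Beach (4.36-fold lower) and from 5.34, 5.47 and 4.47 CPM to 10.0, 7.95 and 8.59 CPM in Inland (1.67-fold higher), and its ratio to Phvul.008G170800 ran from 0.337 to 2.08. The response in Beach was thus the larger one in Phvul.008G170700, and the response in Inland in Phvul.008G170800. Phvul.002G269500 had the largest Inland fold of the Beach-lower genes, from 14.9, 12.9 and 9.60 CPM to 29.6, 37.1 and 33.8 CPM (2.63-fold higher), and went from 22.6, 29.5 and 25.7 CPM to 14.99, 16.7 and 13.8 CPM in Beach. Its neighbour Phvul.002G269400 rested on 1 library in Inland, with 2.46, 7.64 and 2.69 CPM in treatment against 2.32, 2.37 and 2.61 CPM in control, and its Inland fold of 1.62 was 1.05 without Inland treatment replicate 2.

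Members were found on each numbered chromosome of the identifiers, from 1 on chromosome 9 (0.0550% of its genes within the limits) to 9 on chromosome 2 (0.403%). The highest share was 0.626% on chromosome 10, with 6 members. Over all genes within the limits the share was 0.358%. All 5 members on chromosome 5 other than Phvul.005G173000 were Beach-lower genes, and 5 of the 8 members on chromosome 7 were Beach-higher genes.

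By group means, the order of the genotypes mostly differed between control and treated libraries. The opposite folds of the rule favour such an exchange, and it was not counted over all genes. Of the 27 Beach-higher genes, 23 were higher in Inland among controls and 23 were higher in Beach among treated libraries, and for 19 the order was exchanged. For 4 genes Beach was higher under both conditions, and for 4 Inland was. Of the 34 Beach-lower genes, 28 were higher in Beach among controls and 32 were higher in Inland among treated libraries, with the order exchanged for 26. Control levels lay within 2-fold of each other for 10 of the 27 and 24 of the 34. The median control ratio was 2.10 (Inland over Beach) among the Beach-higher genes and 1.36 (Beach over Inland) among the Beach-lower genes, and the median treated ratio was 2.03 (Beach over Inland) and 2.62 (Inland over Beach).

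Control libraries of the genotypes did not overlap for 14 of the 27 Beach-higher genes, all with Inland higher (14.8% of the 17027 genes), and treated libraries for 16, all with Beach higher (24.6%). Among the 34 Beach-lower genes, control libraries did not overlap for 15 with Beach higher (26.9% of the 17027) and 2 with Inland higher, and treated libraries for 25, all with Inland higher (33.0%). The highest of the 4 groups was Inland control for 15 and Beach treatment for 12 of the Beach-higher genes, and Inland treatment for 25 and Beach control for 9 of the Beach-lower genes. The rule used these levels.

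Replicates of the members were more spread than those of other genes. The median coefficient of variation within a group among the Beach-higher genes was 20.3% for untreated and 30.2% for treated Beach, and 42.3% for untreated and 22.3% for treated Inland. Among the Beach-lower genes it was 22.0%, 21.8%, 14.8% and 21.3% in the same order. Over the 17027 genes it was 11.8%, 6.95%, 7.67% and 6.78%. The spread entered the means on which the members were chosen.

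The spread had a pattern by library. Among the Beach-higher genes, Beach treatment replicate 2 was the highest of its group for 18 of 27 (66.7%, against 28.8% of the 17027 genes), and Inland control replicate 2 for 16 (59.3%, against 24.1%). Among the Beach-lower genes, Inland treatment replicate 2 was the highest of its group for 24 of 34 (70.6%, against 35.5%), Beach treatment replicate 3 for 23 (67.6%, against 35.6%) and Beach control replicate 1 for 22 (64.7%, against 47.1%). The part of these libraries in the members' responses was measured by leaving each out.

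**Figure D4:**
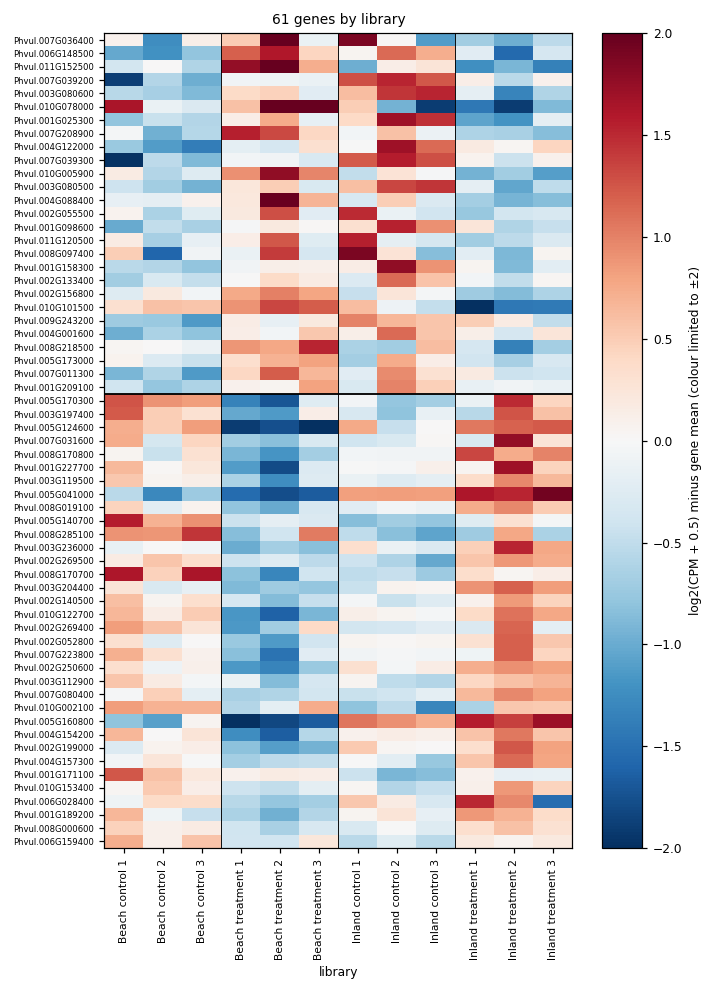
Log2(CPM + 0.5) of each of the 61 genes in each of the 12 libraries, as the difference from the gene's mean over the libraries, with colours limited to 2 in either direction. The 27 Beach-higher genes stand above the horizontal line and the 34 Beach-lower genes below it, and columns such as Beach treatment 2, Inland control 1 and Inland treatment 2 hold single cells that stand out from the other replicates of their group.

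With each library left out in turn and the rule applied again, between 53 and 82 genes met it, and between 42 and 61 of the 61 were among them. Inland treatment replicate 2 mattered most: without it 15 of the 34 Beach-lower and 4 of the 27 Beach-higher genes were lost. Among these were Phvul.003G197400, whose Inland fold went from 2.01 to 1.43, and Phvul.007G031600, whose Inland fold went from 2.09 to 1.17, both named after their values were seen. Without Beach treatment replicate 2, 8 Beach-higher and 4 Beach-lower genes were lost, and without Inland control replicate 2 the numbers were 8 and 3. Leaving out replicate 3 of either Beach group lost none. By the RNA integrity numbers in the paper, Inland treatment replicate 2 and Inland control replicate 1 were each the lowest of their group. Without Inland control replicate 1, 6 Beach-higher and 2 Beach-lower genes were lost, fewer than without Inland control replicate 2. Without Beach control replicate 1, 2 Beach-higher and 7 Beach-lower genes were lost. Beach treatment replicate 2, Inland control replicate 2 and Beach control replicate 1 were not the lowest of their groups by these numbers. In Beach every treated library had a lower number than every control library, while in Inland the numbers overlapped. Whether RNA quality had a part in the members was not tested.

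Whichever library was left out, 19 of the 61 still met the rule. Of these 17 also had no overlap in either genotype and met the rule with TMM and DESeq2 scaling, 9 Beach-higher and 8 Beach-lower genes. They comprised, besides genes described above, Phvul.010G005900, Phvul.001G098600 and Phvul.001G158300. Phvul.010G005900 held 80.5, 47.7 and 59.5 CPM in Beach control, 136, 246 and 141 CPM in Beach treatment, 50.8, 86.3 and 70.6 CPM in Inland control and 36.8, 44.0 and 33.1 CPM in Inland treatment. The set of 17 was put together after the values were seen and is a description of which members depended least on 1 library.

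The rule itself was checked on libraries set aside, for gene lists chosen anew, which shared many genes with the 61 members. Replicate 1, 2 or 3 of every group was set aside, the rule was applied to the other 8 libraries, and the directions were read from the 4 libraries set aside. Of the Beach-higher genes so chosen, 23 of 60 had both directions again in the libraries of replicate 1, 21 of 29 in those of replicate 2 and 26 of 37 in those of replicate 3. Over all genes within the limits of each choice 11.4%, 8.26% and 8.99% had these directions. Of the Beach-lower genes so chosen, 34 of 52, 19 of 23 and 41 of 65 had both directions again, against 21.6%, 23.0% and 25.1% of all genes. Directions therefore held in 38.3% to 82.6% of the chosen genes, and a fold of 1.5 in both genotypes was met again by 4 of 60, 11 of 29 and 12 of 37 Beach-higher and by 5 of 52, 6 of 23 and 12 of 65 Beach-lower genes. Over all genes this fold was met by 0.323%, 0.634% and 0.322% in the Beach-higher and by 0.317%, 0.833% and 0.217% in the Beach-lower direction. Of the Beach-higher genes chosen this way, 21 of 60, 14 of 29 and 24 of 37 were among the 61. For the Beach-lower genes these numbers were 25 of 52, 14 of 23 and 31 of 65. All 12 libraries entered the choice of the 61, so none was held out for them and nothing is read about them here. Each direction here rests on 1 library per group.

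**Figure D5:**
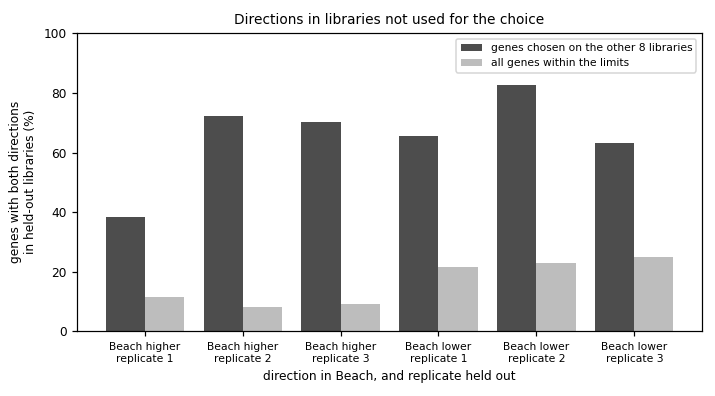
Percent of genes that had both directions again in 4 libraries set aside (1 per group), for genes chosen by the rule on the other 8 libraries (dark bars) and for all genes within the limits (light bars). The dark bars run from 38.3% to 82.6% and the light bars from 8.26% to 25.1%, and the lowest dark bar is that of the Beach-higher genes with replicate 1 set aside.

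The size of the responses relative to the replicate error was also read from edgeR's quasi-likelihood test across all genes, where a call needed an fdr no higher than 0.05 and a change of 2-fold or more. The rule used the same contrasts, so the counts describe the members and nothing is read from them against the background. In Beach 10 of the 27 Beach-higher genes (21 tested) were called higher (6.75% of all tested genes were). There 9 of the 34 Beach-lower genes (29 tested) were called lower (5.75% of all). In Inland 9 of the 27 (20 tested) were called lower (4.10% of all) and 5 of the 34 (30 tested) were called higher (3.38% of all). No call was made in either genotype for 31 of the 61, which include members left untested in both, and the share of all genes was not counted. For the difference between the genotypes' responses 21 of the 27 (26 tested) were called with the Beach response above Inland (2.51% of all). With the Beach response below Inland 27 of the 34 (31 tested) were called (2.42% of all). The filter of 5 CPM in at least 3 libraries left 50 members in the Beach fit, 50 in the Inland fit and 57 in the fit of all libraries, and some members passed it only through the group where they were high.

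Only 3 genes were called in both genotypes with opposite signs, 0.0193% of the 15516 genes tested in both, and all 3 were Beach-higher members: Phvul.003G080600, Phvul.006G148500 and Phvul.007G039200. With 1 library left out, they were called in both genotypes in 9, 7 and 7 of 12 fits respectively, so none kept both calls throughout. Phvul.006G148500 lost its Inland call without Inland control replicate 2 or 3 or any Inland treatment replicate. Phvul.003G080600 lost its Beach call when replicate 3 of Beach control, or replicate 1 or 2 of Beach treatment, was left out. Phvul.007G039200 lost its Beach call when replicate 1 or 3 of Beach control, or any replicate of Beach treatment, was left out. None of the 34 Beach-lower genes was called in both. Without the minimum on fold change 27 of the 61 members were, but the share of all genes at that setting was not counted.

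The limit of 1.5-fold set off genes that hardly differ. Just inside it were Phvul.006G159400, 1.502-fold higher in Inland, and Phvul.008G000600, 1.51-fold higher there. Just outside were Phvul.002G068100, 1.498-fold higher in Inland while 4.29-fold lower in Beach, and Phvul.008G119000, 1.489-fold higher in Inland while 2.12-fold lower in Beach. On the Beach side of the Beach-lower genes Phvul.010G153400 (1.52-fold lower) and Phvul.001G171100 (1.54-fold lower) were in, and Phvul.009G209800 and Phvul.008G069400 (both 1.47-fold lower) were out, although the latter was 3.49-fold higher in Inland.

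Among the Beach-higher genes the limit fell likewise between close values. In Beach Phvul.010G101500 and Phvul.002G133400 (both 1.59-fold higher) were in, and Phvul.006G129800 (1.49-fold) and Phvul.004G120500 (1.48-fold) were out. In Inland Phvul.001G209100 (1.51-fold lower) and Phvul.007G011300 (1.52-fold lower) were in, and Phvul.001G165700 and Phvul.003G163400 (both 1.49-fold lower) were out.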

How the data were processed

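Whole roots of the Beach and Inland genotypes, with and without NaCl, were sequenced in 12 libraries. The authors trimmed the reads with Trimmomatic 0.36, used STAR for alignment to the Phaseolus vulgaris genome and featureCounts for uniquely mapped reads, and deposited these counts per gene without normalization. Versions of STAR and featureCounts and the strand setting are not given in the sources used here. All 12 columns were used.

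Members and gene choices were made with earlier results of these data known. CPM used library totals. Calls across all genes used edgeR 4.0.16 in R 4.3.3 (quasi-likelihood test, TMM, genes above 5 CPM in at least 3 libraries, Benjamini-Hochberg fdr of at most 0.05, fold change of at least 2), in each genotype alone or in all 12 libraries for the difference between responses. The steps were tested on simulated data. The exact test of the authors' code and DESeq2 1.42.0 were run as alternatives, with other scalings, filters and limits, a replicate block and each library left out. Tables were made with Python 3.11.15, pandas 2.3.3 and numpy 2.4.6, and plots with matplotlib 3.10.9.

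Genes named were, per direction, the 6 of largest opposite fold without overlap between libraries and with at least 10 counts in each library of the higher groups, the 3 of highest mean CPM, the one of widest spread within a group, genes next to the fold limit, genes called in both genotypes and neighbouring members. Between libraries of 1 group the chi-square statistic divided by its degrees of freedom was 11.7 to 59.7, well over sampling noise, and each was kept as a separate replicate. Reads carried no molecular identifiers.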

Additional observations from a re-analysis of the deposited data

Results flagged for a closer look

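By the quasi-likelihood test in edgeR, 48 of the 61 members (57 tested) were called for a difference between the genotypes in their salt response. Of all tested genes 2.51% were called with the Beach response above and 2.42% with it below that of Inland. For 37 members every treated library lay on one side of the controls in Beach and on the other side in Inland. This pattern was found in 0.599% (Beach higher) and 2.60% (Beach lower) of the 17027 genes. It was counted on CPM by library totals only. Both counts are given because effects under the same contrast differed between the genotypes. The choice of the members used this contrast in the same libraries. Opposite folds of at least 1.5 in each genotype already put every member past the 2-fold limit of the call by group means. Nothing is therefore read from either count against the shares of all genes. Groups of 3 libraries were too small for a test for outlying libraries. Single libraries were therefore only described, by leaving each out and by which was the highest of its group.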

How the results depend on the processing

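The number of members was 5 with a fold limit of 2 and 364 with the looser limit (log2 ratio 0.32). It stayed within 1.5 times of 61 in the other 19 alternatives, among them 73 genes with no pseudocount, 42 with a pseudocount of 2 CPM and 56 with group medians, of which 59, 41 and 35 were among the 61. Without a minimum on fold change 43 members were called in Beach in place of 19, 33 in Inland in place of 14 and 27 in both in place of 3. The share of all genes called was counted only for the main fits with the 2-fold limit. Nothing is therefore read about the members from the counts of calls in this section. Leaving out each library gave 9 to 19 members called in Inland and 1 to 7 called in both. The 9 came without Inland treatment replicate 2. In both genotypes 1 member was called without Beach control replicate 3, Beach treatment replicate 1 or Beach treatment replicate 2, and 7 without Inland control replicate 1. With a filter of 1 CPM, or none, 6 members were called in both. In these fits the cause was not tested. The count for the difference between responses stayed between 35 and 51 in all alternatives run.

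Libraries with the same replicate number in different groups had correlations of -0.162 to 0.118 in their deviations from the group means, with 3 of 18 above 0.1, so the numbers were not used as pairs. With the replicate block 19 members were called in Beach, 11 in Inland, 1 in both (Phvul.007G039200, while Phvul.003G080600 and Phvul.006G148500 lost that call) and 44 for the difference. The paper calls the replicates biological, and every value here averages over 3 sampling times, which a count per library cannot separate. Depth was at least 29205979 counts per library.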
